A study of Mus musculus with 12 samples.

Results

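Small nucleolar RNAs (snoRNAs) and small Cajal body RNAs (scaRNAs) were followed in the ileal epithelium of mice given a dioxin. Members were the genes of GENCODE M21 biotype snoRNA or scaRNA with at least 60 raw counts summed over the 12 libraries. This rule was met by 105 of the 1558 such genes listed, among 46078 genes in all. Of the others, 1202 had a count of 0 in every library, and 251 had 1 to 59 counts. The nearest genes below the limit were Gm22581 with 58 counts and Snora47, Scarna3a and Snord66 with 55 each, and the nearest above it were Snord89 with 60 counts and Snord8 with 61.

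SnoRNAs are short noncoding RNAs that guide chemical modification of other RNAs by base pairing. C/D box snoRNAs (symbols starting Snord) guide 2′-O-methylation through fibrillarin, and H/ACA box snoRNAs (Snora) guide pseudouridylation through dyskerin, mostly in ribosomal RNA. scaRNAs carry the same boxes and guide modification of spliceosomal snRNAs in Cajal bodies. Most vertebrate snoRNAs are cut from the introns of a host gene after splicing, so a snoRNA and its host mRNA come from a shared precursor and are degraded separately. In a gut lining that renews itself continuously they serve ribosome production.

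Male C57BL/6 mice received sesame oil (vehicle) or 3, 10 or 30 µg/kg of the dioxin TCDD, an agonist of the aryl hydrocarbon receptor (AhR), here called the low, middle and high dose. Mice were 28 days old when dosing began and 56 days old when the study ended, with 7 oral gavages spaced 4 days apart. RNA came from scrapings of the proximal ileal epithelium, with 3 libraries per group. The labels name no genetic change in any group. They give no extraction or sequencing dates, and dose and any such date cannot be told apart.

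The files held between 11695887 and 22180274 gene counts per library, of which members took 0.0309% to 0.0796%. Levels are CPM, counts scaled to library size with TMM factors, and 3 counts correspond to 0.139 to 0.266 CPM depending on the library. Cyp1a1, the classic AhR target, lay between 19.0 and 27.5 CPM in vehicle and between 2608 and 3251 CPM at the high dose. As a sum, enterocyte markers were present throughout (17440 to 26364 CPM over 9 genes), and the 2 liver markers together stayed at or below 0.216 CPM. Single enterocyte markers differed between doses, as given with the other cell types.

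Members were sorted by symbol, or by sequence where the symbol is only a Gm or AF number. The search took TGATGA (C box) within the first 20 bases, CTGA (D box) within the last 15 and ACA with 2 to 4 bases after it at the 3′ end. Both C and D boxes made a member C/D, otherwise the ACA end made it H/ACA, and otherwise a D box alone made it C/D. Among genes with a Snord name, 93.9% held the D box, and among those with a Snora name 95.2% held the ACA end. Over all 1558 annotated genes the shares were 30.9% and 44.3%, and the C box was found in 21.3%. The C/D class comprised 29 members (12 by name), the H/ACA class 55 (15 by name), and the scaRNA class 11. Neither box set was found in 10 members. scaRNAs held 59.4% of the members' counts, C/D members 19.5% and H/ACA members 19.1%.

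The RNAs on which the results turn are shown 5′ to 3′ as DNA letters from the GENCODE M21 transcripts (GRCm38), with the boxes found by the search in capitals. The first pair are H/ACA members that lay below vehicle at the low and middle doses and near the vehicle level at the high dose. Gm25776 (chr12:91573430-91573572, minus strand) lies in an intron of Gtf2a1, which encodes a general transcription factor subunit. Gm25394 (chr13:49684301-49684433, plus strand) lies in an intron of Iars, the isoleucyl-tRNA synthetase gene.
Gm25776: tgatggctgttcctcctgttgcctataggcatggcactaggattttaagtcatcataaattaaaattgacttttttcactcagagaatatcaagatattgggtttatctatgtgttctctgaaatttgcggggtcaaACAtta
Gm25394: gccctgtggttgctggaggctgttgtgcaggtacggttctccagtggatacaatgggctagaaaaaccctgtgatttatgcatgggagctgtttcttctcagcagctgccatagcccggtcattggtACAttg

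The next were called against vehicle at the high dose. Gm22442 (chr11:69350518-69350661, minus strand) is a scaRNA in an intron of Chd3, and it was called at all 3 doses, at the high dose by a narrow margin. Gm26397 (chr8:126944847-126944980, minus strand) is an H/ACA member in an intron of Tomm20, a subunit of the mitochondrial import receptor.
Gm22442: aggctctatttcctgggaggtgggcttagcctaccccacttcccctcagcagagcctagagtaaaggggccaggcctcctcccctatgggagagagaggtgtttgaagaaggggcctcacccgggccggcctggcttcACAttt
Gm26397: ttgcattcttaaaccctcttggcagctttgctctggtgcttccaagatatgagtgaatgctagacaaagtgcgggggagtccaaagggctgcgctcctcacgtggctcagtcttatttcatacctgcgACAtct

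The next 3 C/D members had the largest rises of their class at the high dose. Gm24339 (chr9:15326464-15326539, minus strand) lies in an intron of Cep295, Gm24357 (chr9:15315522-15315595, plus strand) overlaps an annotated exon of Taf1d, and Snord104 (chr11:106500993-106501062, plus strand) has no annotated host on its strand.
Gm24339: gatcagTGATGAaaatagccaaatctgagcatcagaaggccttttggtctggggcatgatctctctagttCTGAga
Gm24357: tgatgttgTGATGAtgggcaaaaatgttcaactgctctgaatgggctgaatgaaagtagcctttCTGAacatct
Snord104: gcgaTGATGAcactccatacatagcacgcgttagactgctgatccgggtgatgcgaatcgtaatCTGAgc

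Snora73a (chr4:132352775-132352979, minus strand) and Snora73b (chr4:132352322-132352526, minus strand) are copies of U17, an H/ACA RNA known for its part in pre-rRNA cleavage rather than pseudouridylation. They were identical at 198 of 205 aligned bases (96.6%), so reads from the one may be placed on the other or set aside as multiply aligned.
Snora73a: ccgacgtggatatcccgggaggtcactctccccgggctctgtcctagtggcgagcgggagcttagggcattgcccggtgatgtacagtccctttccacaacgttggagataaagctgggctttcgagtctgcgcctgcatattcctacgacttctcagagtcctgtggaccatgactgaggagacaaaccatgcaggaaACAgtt
Snora73b: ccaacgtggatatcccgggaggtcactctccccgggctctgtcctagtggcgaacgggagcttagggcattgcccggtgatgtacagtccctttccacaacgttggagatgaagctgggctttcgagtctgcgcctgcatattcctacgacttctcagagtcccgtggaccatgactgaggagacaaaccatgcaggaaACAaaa

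Lengths ran from 64 to 271 nt in C/D members (median 81), from 100 to 246 nt in H/ACA members (median 134) and from 79 to 414 nt in scaRNAs (median 265). Short species were rarely seen. Of 87 annotated Snord genes under 100 nt, 6 were members, and 48 of all 98 Snord genes had no count. The 17 Snord116 copies, brain-expressed RNAs of the imprinted Prader-Willi region, had 0 counts in all 12 libraries. Snord13, an atypical guide of acetylation, had 12 counts, Snord14a had 30 and Scarna9 had 53, all below the limit.

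A host gene on the same strand enclosed 96 members, and 70 of these were intronic in M21 while 26 overlapped an exon of the host. The 78 hosts included 12 ribosomal protein genes, and 11 hosts held more than 1 member. Over any gene, 29 members overlapped an exon, where a read is counted for neither gene or for whichever it fits. In 14 members at least 50% of the 25-base words recurred in transcripts of other genes, so their counts are uncertain.

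Across 15823 genes tested with edgeR's quasi-likelihood model, 70 members passed the filter on low counts and 35 did not. None of the 70 reached the filter's level in 1 group alone, where any 1 library was enough for a group to count. Members that passed mainly through 1 group can therefore be among them. A gene was called where the Benjamini-Hochberg adjusted p was under 0.05 and the change at least 1.5-fold. The 3 comparisons with vehicle share the vehicle libraries, and those with the high dose share its libraries, so their calls are not independent.

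**Figure D1:**
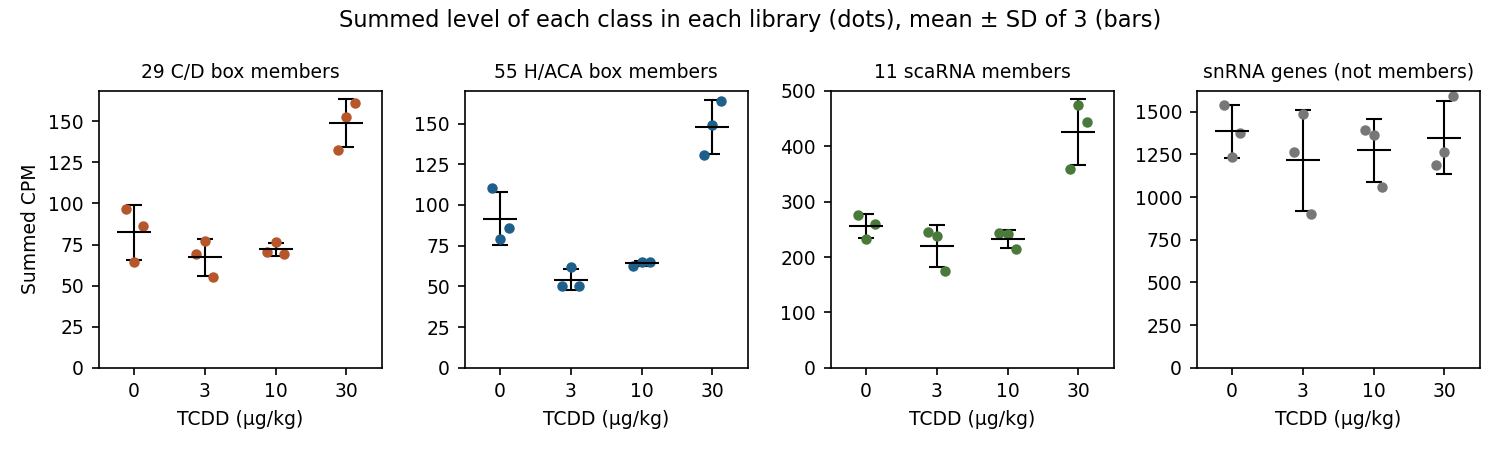
Summed CPM (vertical axes) of the members of each class and of all snRNA genes by TCDD dose in µg/kg (horizontal axes), with 1 dot per library and bars for mean ± SD of 3. For C/D, H/ACA and scaRNA members every high-dose library lies above every other library, and the snRNA sums overlap between all doses.

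Summed over all 105 members, filter aside, the level was 439 ± 51.8 CPM in vehicle (SD, n = 3), 351 ± 53.1 at the low dose, 378 ± 19.4 at the middle dose and 734 ± 86.6 at the high dose. The lowest high-dose library, at 634 CPM, was above the highest vehicle library at 490 CPM. For H/ACA members the sum was 110, 79.2 and 85.6 CPM in the vehicle libraries, 50.2, 62.0 and 50.5 at the low dose, and 62.4, 64.9 and 65.1 at the middle dose, which puts every library of both doses below every vehicle library. At the high dose it was 131, 149 and 164 CPM. The C/D sum was 82.4 ± 16.6 CPM in vehicle, 67.3 ± 11.3 at the low dose, 72.1 ± 4.10 at the middle dose and 149 ± 14.5 at the high dose, and the libraries of the lower doses overlapped vehicle. The scaRNA sum was 256 ± 21.9, 220 ± 38.5, 233 ± 16.2 and 426 ± 59.4 CPM in the same order. The sums were described and not tested.

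snRNAs, the spliceosomal RNAs that scaRNAs act on, are set beside them. Their sum was 1384 ± 153 CPM in vehicle and 1347 ± 214 CPM at the high dose, and of 32 snRNA genes tested 0 were called there, with a median log2 change of -0.09 and 6 at an unadjusted p under 0.05. At the low dose 2 of them were called lower, against 0.171% of all genes, and 0 higher, against 0.0569%. Between the high and low doses 7 of the 32 were called higher, against 3.61% of all genes, and 0 lower, against 1.25%. Against the middle dose 2 were called higher at the high dose, against 2.17% of all genes, and 2 lower, against 0.607%.

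At the high dose against vehicle, 20 members were called higher, 28.6% of the 70 tested, against 3.08% of all genes tested. None was called lower, against 0.891% of all genes. The 20 comprised 9 H/ACA members, 6 scaRNAs, 4 C/D members and 1 without boxes, and in each of the 20 the 3 high-dose libraries were all above the 3 of vehicle. This separation was seen in 30 of the 70, against 14.2% of all genes tested. The median log2 change of the tested members was 0.49, that of all genes was -0.02, and over all 105 members in a fit with no filter it was 0.39. DESeq2 called 20 members higher and limma-voom 21, with 0 lower by either. The count was 10 without vehicle library 3, 12 without vehicle library 2, and 11 and 13 without libraries 3 and 2 of the high dose.

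**Figure D2:**
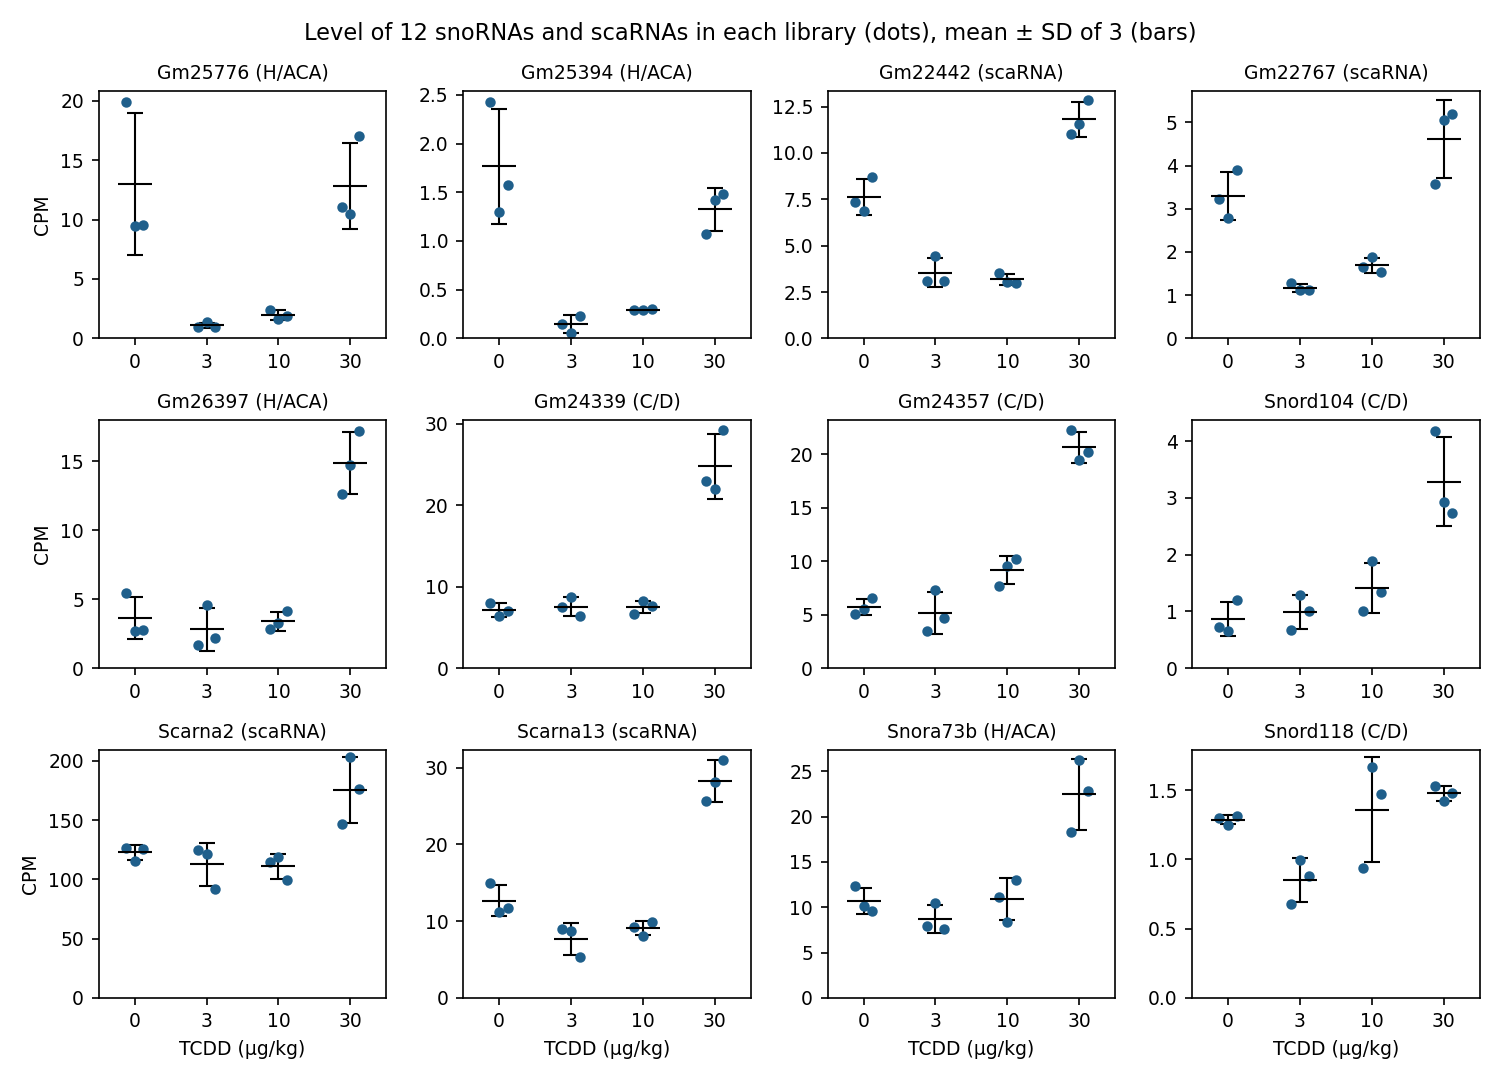
CPM (vertical axes, from 0) of 12 named members by TCDD dose in µg/kg (horizontal axes), with 1 dot per library and bars for mean ± SD of 3. Gm25776, Gm25394, Gm22442 and Gm22767 are lowest at 3 and 10 µg/kg, Gm26397, Gm24339 and Snord104 are high at 30 µg/kg, and Snord118 overlaps between vehicle and 10 µg/kg.

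Among scaRNAs, Scarna2, a 414-nt RNA and the member with the most counts, had 126, 116 and 126 CPM in vehicle, and 147, 203 and 177 CPM at the high dose. All high-dose libraries lay above vehicle, but the estimate, 0.51 on the log2 scale (SE 0.14, edgeR adjusted p = 0.045), was below 1.5-fold and was not called. Scarna13, read from an intron of Snhg10, had 12.7 ± 2.03 CPM in vehicle and 28.3 ± 2.71 CPM at the high dose (SD, n = 3), with no overlap. It rose by 1.16 on the log2 scale (SE 0.18, edgeR adjusted p = 0.0022). Scarna10 rose by 1.29 (SE 0.17, edgeR adjusted p = 0.00055), and it overlaps an exon of Ncapd2, whose own log2 change was 0.25 (SE 0.21). Its mean went up at each dose, from 8.56 ± 0.386 CPM in vehicle to 10.3 ± 2.34, 12.8 ± 1.10 and 21.0 ± 3.02 (SD, n = 3).

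The scaRNA Gm23119, on chromosome 18, came next in counts. It had 53.9, 47.8 and 50.8 CPM in vehicle and 84.4, 107 and 104 CPM at the high dose, with no overlap, and rose by 0.96 on the log2 scale (SE 0.14, edgeR adjusted p = 0.0016). Scarna17, its neighbour on the same strand, had a log2 change of 0.46 (SE 0.26), not called. Gm22009, in an intron of Kpna4, had a log2 change of 0.84, and Gm25395, in an intron of Atg16l1, 0.69, both called. The Gm25395 call was lost in 12 of 23 alternative settings and the Gm22009 call in 8, most of them with 1 library left out. All 11 scaRNAs were tested, all 11 estimates were positive, between 0.39 and 1.29, and 6 were called.

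Of the H/ACA members, Gm26397 had the largest called rise, 2.04 on the log2 scale (SE 0.34, edgeR adjusted p = 0.0034). It had 5.42, 2.68 and 2.78 CPM in vehicle, 1.66, 4.61 and 2.17 CPM at the low dose, 2.81, 3.26 and 4.16 CPM at the middle dose, and 12.7, 14.8 and 17.2 CPM at the high dose. The lower doses overlapped vehicle and the highest stood apart from all. Both U17 copies rose, Snora73b by 1.07 (SE 0.19) and Snora73a by 0.98 (SE 0.20). They lie within both Rcc1, a chromatin-bound exchange factor gene, and the snoRNA host Snhg3. Rcc1 had a log2 change of -0.02 (SE 0.14), and Snhg3 rose by 0.99 (SE 0.22, edgeR adjusted p = 0.018).

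Of the other H/ACA members called at the high dose, Gm24616, over an exon of Eif4a2, went from 3.14 ± 1.07 CPM in vehicle to 7.52 ± 1.57 CPM, and Gm24727, in an intron of Gsr, from 0.821 ± 0.237 to 2.31 ± 0.607 CPM (SD, n = 3). Gm25291 and Gm24727, both of 144 nt, shared 85.8% and 80.8% of their 25-base words with transcripts of other genes, Eif4a1 among them, so their counts are uncertain. Of the 36 H/ACA members tested, 9 were called, and their estimates ran from -1.66 (Gm24507, not called, edgeR adjusted p = 0.16) to 2.04.

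Among C/D members, Gm24339 was nearly level up to the middle dose. It had 8.01, 6.34 and 6.99 CPM in vehicle, 7.55, 8.70 and 6.34 CPM at the low dose, 6.70, 8.20 and 7.66 CPM at the middle dose, and 23.0, 22.0 and 29.3 CPM at the high dose. The step at the highest dose was 1.80 on the log2 scale (SE 0.16, edgeR adjusted p = 3.8e-05), and the estimate was 0.08 at each lower dose. Gm24357 lies nearby on the opposite strand. Its mean went from 5.72 ± 0.767 CPM in vehicle to 9.15 ± 1.29 at the middle dose and 20.6 ± 1.42 at the high dose (SD, n = 3), a log2 change of 1.85 at the highest dose (SE 0.22, edgeR adjusted p = 0.00030). Snord104 rose by 1.93 (SE 0.34, edgeR adjusted p = 0.0052) from a low level, 0.733, 0.648 and 1.21 CPM in vehicle against 4.19, 2.93 and 2.74 CPM.

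The longest C/D member, Gm23547, 271 nt and overlapping an exon of Phb2, rose by 0.96 (SE 0.18, edgeR adjusted p = 0.0060). Several other named C/D members were not called at the high dose. Snord15a, in an intron of the ribosomal protein gene Rps3, had a log2 change of 0.06 (SE 0.25). Snord118, the U8 RNA needed for large-subunit rRNA maturation, had 1.30, 1.25 and 1.31 CPM in vehicle and 1.53, 1.42 and 1.48 CPM at the high dose, with an estimate of 0.20 on the log2 scale (SE 0.27, edgeR adjusted p = 0.72). Snord17, of 238 nt in an intron of Snx5, ran from 8.89 to 24.1 CPM within vehicle alone.

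At the low dose, 4 of the 70 members were called lower (5.71%), against 0.171% of all genes tested, and 0 were called higher, against 0.0569% of all genes. They were 2 H/ACA members and 2 scaRNAs. At the middle dose, 3 were called lower (4.29%), against 0.126% of all genes, and 0 higher, against 0.487%. All 3 were also among the 4 of the lower dose. Without vehicle library 1, vehicle library 3 or library 3 of the low dose, 2 were called at the low dose, and 1 with the other doses left out of the fit. Beyond the calls, 55 of 70 estimates were negative at the low dose and 49 at the middle dose, against 7869 and 8135 of the 15823 genes tested. These estimates all rest on the same vehicle libraries, so the members are not separate observations. The libraries lay entirely below vehicle in 23 members at the low dose, against 6.84% of all genes, and in 17 at the middle dose, against 11% of all genes. Other noncoding RNAs moved too. Of 36 tested genes of biotype misc_RNA, 3 were called lower at the low dose, against 0.171% of all genes, and 0 higher, against 0.0569%. Of their estimates there, 30 were negative. At the high dose 8 of the 36 were called higher, against 3.08% of all genes, and 0 lower, against 0.891%. Between the high and low doses 14 were called higher, against 3.61%, and 0 lower, against 1.25%.

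Gm25776 had 19.9, 9.49 and 9.56 CPM in vehicle, 0.981, 1.34 and 0.939 CPM at the low dose, 2.38, 1.60 and 1.90 CPM at the middle dose, and 11.1, 10.5 and 17.0 CPM at the high dose. The lower doses stood far below vehicle, and the high-dose libraries lay within the vehicle range. It fell by 3.56 on the log2 scale at the low dose (SE 0.35, edgeR adjusted p = 0.00089) and by 2.72 at the middle dose (SE 0.33, edgeR adjusted p = 0.0016). At the high dose the estimate against vehicle was 0.00 with an SE of 0.28, while against the low dose, a comparison without the vehicle libraries, it rose by 3.55 (SE 0.35, edgeR adjusted p = 8.9e-05). Its host Gtf2a1 had log2 changes of 0.14 (SE 0.10) at the low dose and 0.01 (SE 0.10) at the high dose.

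Gm25394 showed the same order of groups with fewer counts. It had 43, 28 and 30 counts in the vehicle libraries, 2, 1 and 4 at the low dose, 4, 4 and 5 at the middle dose, and 21, 16 and 27 at the high dose. The pooled vehicle level was 11.7 times that of the low dose, with an exact 95% counting interval of 5.48 to 29.9, and 5.86 times that of the middle dose (3.27 to 11.4). These intervals cover counting error only. It fell by 3.51 on the log2 scale at the low dose (SE 0.45, edgeR adjusted p = 0.0053), and by 2.54 at the middle dose (SE 0.41, edgeR adjusted p = 0.013), and its host Iars had a log2 change of 0.13 (SE 0.20). The call was lost in 1 of 22 settings at the low dose, the compared groups alone, and in 4 at the middle dose, without any 1 of the middle-dose libraries or vehicle library 1.

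Of the scaRNAs, Gm22442 was lower than vehicle at the low and middle doses and higher at the high dose. It had 7.33, 6.85 and 8.72 CPM in vehicle, 3.09, 4.44 and 3.11 CPM at the low dose, 3.53, 3.05 and 3.00 CPM at the middle dose, and a mean of 11.8 ± 0.946 CPM at the high dose (SD, n = 3). The 4 groups formed 3 levels without overlap. The log2 changes were -1.10 (SE 0.17), -1.26 (SE 0.18) and 0.63 (SE 0.16), each called. Over 23 alternative settings the call was lost in 6 at the low dose, in 0 at the middle dose and in 13 at the high dose, where 9 of the 13 left out 1 library and the adjusted p reached 0.146. Gm22767, in an intron of Ppp1r8, fell by 1.49 at the low dose (SE 0.24, edgeR adjusted p = 0.021), from 3.29 ± 0.559 to 1.17 ± 0.0984 CPM (SD, n = 3). Its low-dose call was lost in 8 of 23 settings. At the middle dose its log2 change was -0.96 (edgeR adjusted p = 0.089).

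**Figure D3:**
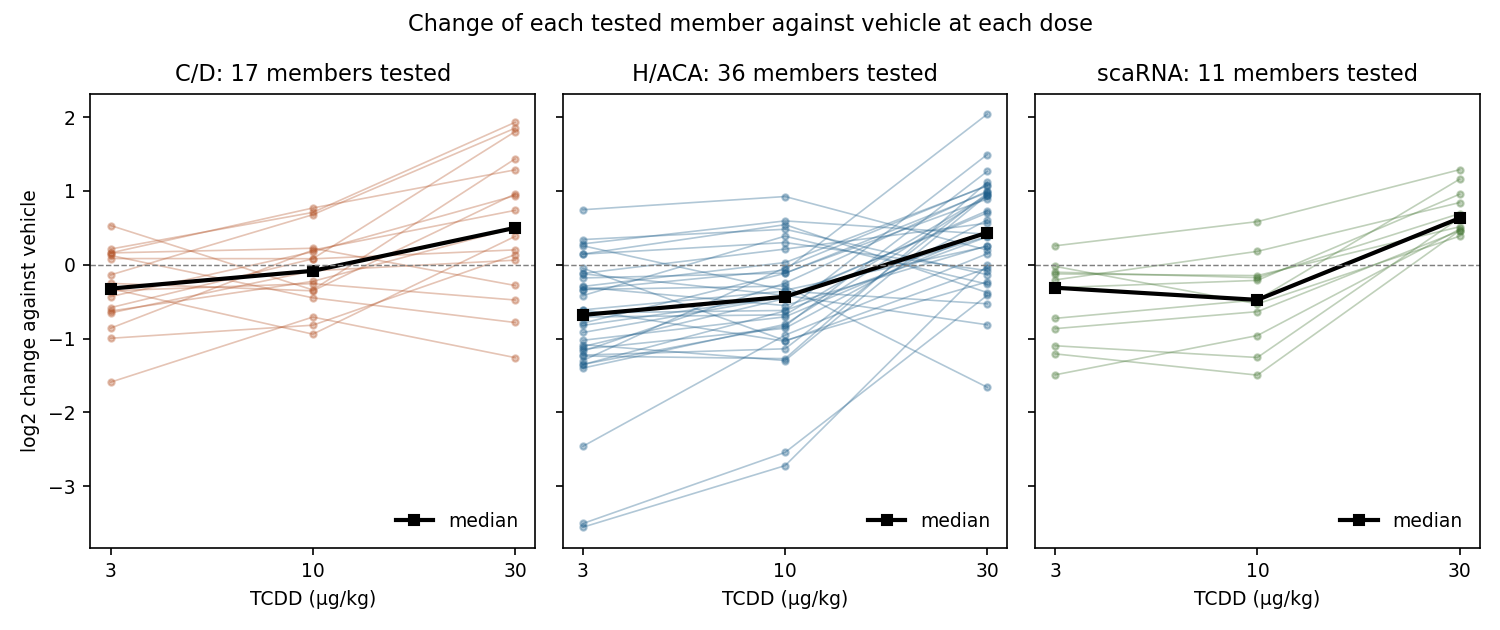
Log2 change against vehicle (vertical axis) at 3, 10 and 30 µg/kg TCDD (horizontal axes) for each of 17 C/D, 36 H/ACA and 11 scaRNA members tested, 1 thin line each, with the class median in black. The H/ACA medians are -0.68, -0.43 and 0.44, and Gm25776 and Gm25394 are the 2 lowest lines at 3 and 10 µg/kg.

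By class, the median log2 change at the low dose was -0.68 in 36 tested H/ACA members, -0.31 in 11 scaRNAs and -0.32 in 17 C/D members, and in the fit of all members with no filter it was -0.62, -0.33 and 0.07. At the middle dose the medians of the tested were -0.43, -0.48 and -0.08, and at the high dose 0.44, 0.63 and 0.50. Differences between classes were not tested. The opposite shape occurred too. Gm23182, in an intron of the citrate synthase gene, had a mean of 0.707 CPM in vehicle, 1.82 at the low dose, 1.33 at the middle dose and 0.606 at the high dose, and no comparison called it. Snora28, over an exon of Eif5, had log2 changes of 0.75 at the low dose and 0.92 at the middle dose, not called. Both were named after their values were seen.

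Directly between doses, 35 of the 70 members were higher at the high than at the low dose (50%), against 3.61% of all genes, and 0 were lower, against 1.25%. They comprised 18 H/ACA members, 9 scaRNAs, 7 C/D members and 1 without boxes. Against the middle dose, 28 were higher (40%), against 2.17% of all genes, and 0 lower, against 0.607%. Between the middle and low doses edgeR, DESeq2 and limma-voom each called 0 members in either direction. Of all genes, edgeR called 0.145% higher and 0.0126% lower there. In edgeR 9 of the 70 members had an unadjusted p under 0.05, against 522 of the 15823 genes tested. Without library 2 or 3 of the middle dose or library 2 of the high dose the count against the middle dose was 16, and without library 3 of the high dose 18. A trend over the 4 dose ranks called 7 members higher (10%), against 2.53% of all genes, and 0 lower, against 0.752%. Leaving out any 1 library of the high dose, or vehicle library 2, gave 4, and leaving out vehicle library 1 gave 11. The 7 were Gm22009, Scarna10, Snora73b, Gm24339, Gm24357, Gm26397 and Snord104, whereas Gm25776 had a trend estimate of 0.01 (SE 0.80).

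Several members were called between the high and low doses but not against vehicle. Snord22, which overlaps an exon of Snhg1, had 5.08, 2.45 and 4.52 CPM in vehicle, 1.51, 2.63 and 1.82 CPM at the low dose and 4.54, 4.18 and 4.43 CPM at the high dose. Its level at the high dose lay within the vehicle range. Snora23, in an intron of Ipo7, rose by 1.76 between the low and high doses (SE 0.33, edgeR adjusted p = 0.0073), and Gm25117, in an intron of Nap1l1, by 2.61 (SE 0.52, edgeR adjusted p = 0.0089) from 2, 2 and 3 counts in the low-dose libraries. The Snord22 call was lost in 7 of 23 alternative settings. Scarna2 had an estimate of 0.64 in this comparison (SE 0.14, edgeR adjusted p = 0.014), which was called, but with length and GC trends removed it was -0.045, and the call was lost in 3 further settings of 23, namely with the compared groups alone, without high-dose library 2 and without low-dose library 3.

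**Figure D4:**
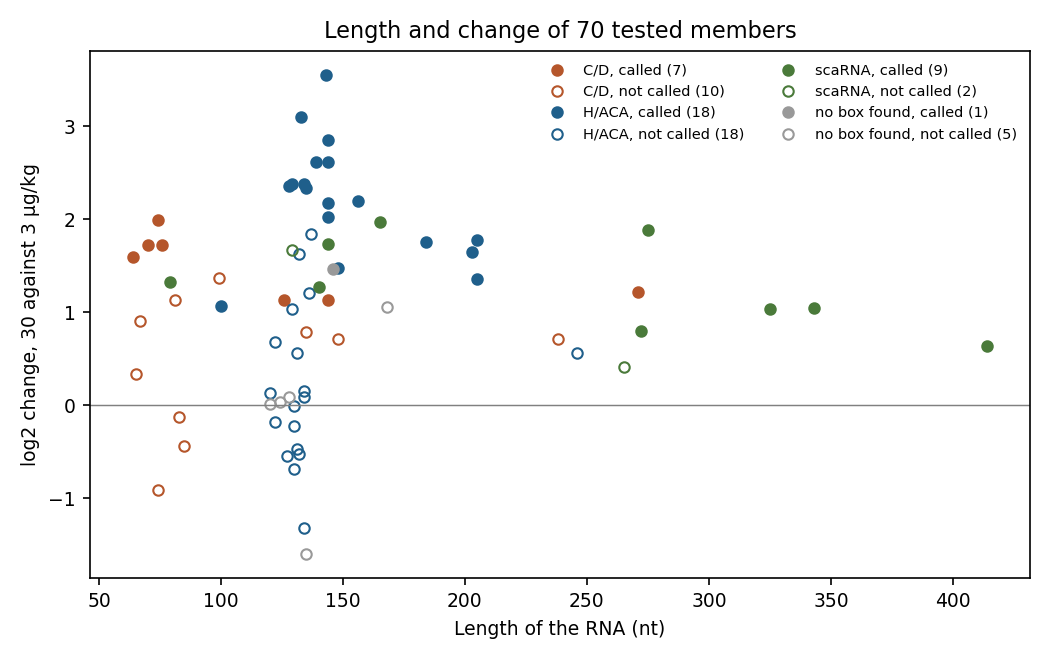
Log2 change between the high and low doses of TCDD (vertical axis) against RNA length in nt (horizontal axis) for the 70 tested members, filled where called. The largest rises, 3.55 and 3.09, belong to H/ACA members of 143 and 133 nt, and H/ACA members of about the same length are also found below 0.

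Length and mean level were set beside the changes. Between the high and low doses the rank correlation with length over the 70 members was 0.25 and with mean level 0.34, and at the high dose against vehicle 0.19 and 0.47. These are descriptions across RNAs read from the same libraries. Of the 12 tested members of 200 nt and over, 8 were called higher at the high dose and all 12 estimates were positive, against 9 of 46 called at 100 nt or more but under 200 nt and 3 of 12 under 100 nt.

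**Figure D5:**
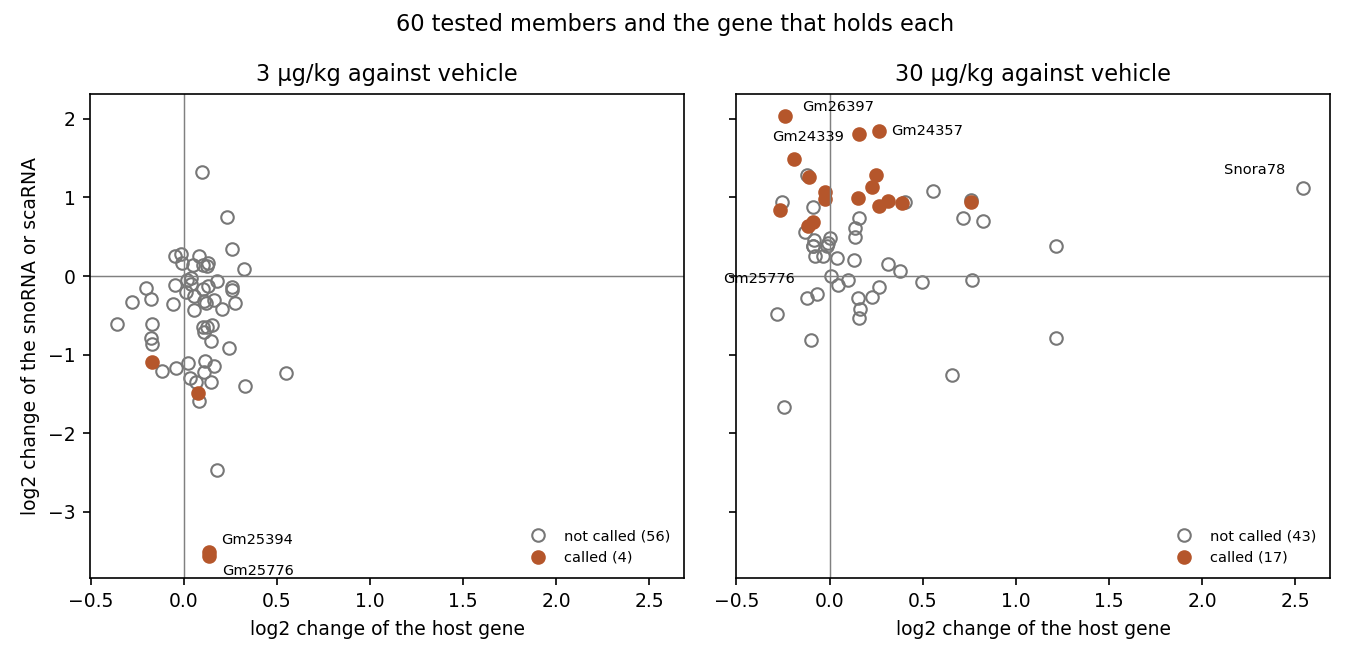
Log2 change of 60 tested members (vertical axis) against that of the gene that holds each (horizontal axis), at 3 µg/kg (left) and 30 µg/kg TCDD (right), filled where the member was called. At 30 µg/kg the 1 host assigned to each called member lies between -0.27 and 0.76 (Rcc1 for both U17 copies, with Snhg3 at 0.99 not plotted), and at 3 µg/kg Gtf2a1 and Iars lie at 0.14 and 0.13 while Gm25776 and Gm25394 are the lowest points.

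Few hosts of called members were themselves called. Snhg1, which holds Snord22, and Snhg10, which holds Scarna13, were not analysed, so these members had no host estimate. For 60 tested members with a tested host the rank correlation of the log2 changes was 0.01 at the high dose and -0.06 at the low dose. Of 76 hosts tested, 9 were called higher at the high dose, against 3.08% of all genes, and 0 lower, against 0.891%, with a median of 0.04. Of the 15 tested hosts of members called there, 1 was called higher and 0 lower. Each member was given 1 host, a protein-coding gene wherever such a gene enclosed it, so noncoding hosts may be passed over. For both U17 copies the host was Rcc1, so Snhg3, which also encloses them and was called, is not in these counts. The host counted as called was Rpsa, a ribosomal protein gene, which rose by 0.76 (SE 0.13) and holds Gm26448, which rose by 0.94 (SE 0.24), a call lost in 11 of 23 settings. Tomm20 had a log2 change of -0.24 (SE 0.14) beside 2.04 for Gm26397. The reverse was seen in Rps12, another ribosomal protein gene, which rose by 1.22 (SE 0.10) while its members Snora33 and Gm23130 had 0.38 (SE 0.43) and -0.78 (SE 0.66), neither called. Snora78 and its noncoding host Snhg9 had 1.12 (SE 0.47, not called) and 2.54 (SE 0.44, called).

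Members of one host also differed in estimate. Within Taf1d, a gene for an RNA polymerase I factor subunit, Gm24357 had a log2 change of 1.85 (SE 0.22) at the high dose, Gm23455 0.89 (SE 0.20) and Gm24455 -0.13 (SE 0.46), with 0.27 (SE 0.11) for Taf1d itself. Within Atg16l1, Gm25395 had 0.69 (SE 0.19) and Scarna6 0.39 (SE 0.29). These differences within a host were not tested.

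Of the 39 genes for snoRNA proteins and related nucleolar factors, all were tested and the median at the high dose was 0.35. There 3 were called higher, against 3.08% of all genes, and 0 lower, against 0.891%. Nop10, a core H/ACA protein, rose by 1.49 (SE 0.26, edgeR adjusted p = 0.0040), from 2.99 to 8.33 CPM on average, and Gar1, a further one, went from 4.37 to 9.97 CPM (SE 0.28 on the log2 scale, edgeR adjusted p = 0.027). Npm1, which encodes nucleophosmin, rose by 0.80 (SE 0.20, edgeR adjusted p = 0.034). The C/D core proteins Fbl, Nop56, Nop58 and Snu13 had estimates between 0.46 and 0.70, none called. An unadjusted p under 0.05 at the high dose was found in 4 of 4 C/D core and 4 of 4 H/ACA core genes. It was found in 6 of 13 assembly and trafficking, 0 of 4 Cajal body and 3 of 4 U3 protein genes. For RNA polymerase I and the nucleolus it was 2 of 6, and for debranching and exosome 0 of 4. Over all genes it was 3422 of 15823. At the low and middle doses none of the 39 was called, with 6 and 7 at an unadjusted p under 0.05, against 1800 and 2511 of all genes.

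Several library measures moved with dose beside these results. Reads in no annotated gene made up 29.4% of entries in each vehicle library and at most 25.4% at the high dose, and reads aligned to more than 1 place 32.5% to 34.6% and 36.2% to 38.8%. Among short protein-coding genes, from 300 nt to under 600 nt, 46 of 86 tested were called higher at the high dose, against 3.08% of all genes. There 0 were called lower, against 0.891%, and their median log2 change was 1.17. At the low dose their median was 0.01. Between the high and low doses 40 of the 86 were called higher, against 3.61%, and 1 lower, against 1.25%, with a median of 1.01. Other genes under 300 nt had 11 of 150 called higher at the high dose, against 3.08% of all genes, and 2 lower, against 0.891%, with a median of -0.08. At the low dose 6 of these 150 were called lower, against 0.171% of all genes, and 0 higher, against 0.0569%. Between the high and low doses 25 were called higher, against 3.61%, and 3 lower, against 1.25%. With length and GC trends taken out of each library, the calls were 13 members higher at the high dose, 2 lower at the low dose, and 19 higher with 1 lower between the high and low doses. The part of read length, size selection or RNA quality in the results was not tested.

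Among other structured noncoding RNAs, Rpph1, Terc and Rn7sk were chosen outside the naming rule. Rpph1, the RNA of ribonuclease P, lay between 3753 and 4130 CPM in vehicle, 1391 and 2009 at the low dose, 1855 and 1976 at the middle dose, and 9492 and 11742 at the high dose. It fell by 1.18 at the low dose and rose by 1.41 at the high dose (SE 0.14 in both). Terc, the telomerase RNA, which ends in an H/ACA domain, rose by 1.82 between the low and high doses (SE 0.35, edgeR adjusted p = 0.0076), while its estimate against vehicle at the high dose was 0.73 (edgeR adjusted p = 0.21) and was not called. Rn7sk, the 7SK RNA that restrains transcription elongation, averaged 107 CPM in vehicle, 43.8 at the low dose, 68.6 at the middle dose and 71.5 at the high dose. It was called lower at the low dose, with a log2 change of -1.28, and its high-dose estimate of -0.58 was below 1.5-fold.

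Markers of several cell types also differed between doses. Of the 9 enterocyte markers, 1 was called higher at the low dose, against 0.0569% of all genes, and 0 lower, against 0.171%. The highest log2 estimate there was 8.68. Between the high and low doses 2 of the 9 were called lower, against 1.25%, and 0 higher, against 3.61%, and the lowest estimate was -8.44. The summed level of 6 Paneth cell markers ran from 662 to 1003 CPM in vehicle and from 2077 to 2797 CPM at the high dose. There 5 of the 6 were called higher, against 3.08% of all genes. Of 7 proliferation markers 0 were called at the high dose and 4 had an unadjusted p under 0.05, and the 5 smooth muscle markers summed to 47.1 to 166 CPM in vehicle, 13.3 to 72.9 at the low dose, 18.6 to 29.8 at the middle dose and 29.7 to 105 at the high dose. The 5 pancreatic acinar markers summed to 6.99 to 8.98 CPM in vehicle, 2.11 to 3.23 at the low dose, 4.90 to 5.66 at the middle dose and at least 2.71 at the high dose. Of 3 tested, 2 were called lower at the low and at the high dose, against 0.171% and 0.891% of all genes. In such bulk scrapings more cells of a type and more RNA per cell cannot be told apart, and the part of cell makeup in the members' values was not tested.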

How the data were processed

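RNA sequencing libraries of 12 ileal epithelial scrapings, 3 per group, were analysed from the raw counts of reads per Ensembl gene that the authors deposited, 1 file per library, with no normalisation. The submitters' processing notes name FastQC 0.11.3, Trimmomatic 0.33, TopHat2 2.1.0, SAMtools 1.2.0, HTSeq 0.6.1, DESeq and the build GRCm38. The annotation release and the strand setting are not given in the sources used here. Reads in no gene, in several genes or aligned to several places were excluded from totals and tests. HTSeq drops multiply aligned reads, which removes counts of multicopy snoRNAs, and without a stated strand setting Snora73a, Snora73b, Snora23, Snora57, Snora78, Gm23711 and Snord8 cannot be told apart from an antisense gene.

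Identifiers were matched to GENCODE M21 (45229 of 46078). Counts were tested with edgeR 4.0.16 in R 4.3.3 after filterByExpr (15823 genes), with TMM factors and 1 quasi-likelihood model of 4 groups. SEs were derived from the F statistic. P-values were adjusted over all genes tested, and the trend was fitted over dose rank 0 to 3. The procedure was checked on simulated counts. Members and lists were chosen with earlier results of these data known. A host was a protein-coding or long noncoding gene that encloses the member on its strand. Where several did, a protein-coding gene was taken before a noncoding gene, and then the gene with the shortest span. The rank correlations are Spearman's. Ratios of pooled counts carry exact binomial intervals at 95%.

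Named members were the 5 with the highest mean CPM in each class, those called against vehicle or between 30 and 3 µg/kg (up to 25 per comparison by p), and a list of special roles. Members named outside this rule were chosen after their values were seen, or illustrate a shared host. Replicate numbers follow accession order, and nothing in the labels says more of the animals behind them, so p-values measure the spread between these libraries. DESeq2 1.42.0, limma-voom in limma 3.58.1, other scalings, filters, covariates and left-out libraries were the alternatives.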

Additional observations from a re-analysis of the deposited data

How the results depend on the processing

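Counts of members called were compared over 15 alternatives for each comparison (14 for the trend) and with each library left out. At 3 µg/kg, 4 were called against vehicle, and DESeq2 gave 9, the compared groups alone 1, length and GC trends removed 2, and the library index as a covariate 2, while leaving out 1 library gave 2 to 6, the lowest without TCDD 3 µg/kg library 3, vehicle library 1 or vehicle library 3. At 30 µg/kg, 20 were called, and the length and GC setting, the index and the 50 tested members without exon overlap each gave 13, while leaving out 1 library gave 10 to 20. Between 30 and 10 µg/kg, 28 were called, 13 with length and GC trends removed and 16 to 30 with 1 library left out. Between 30 and 3 µg/kg, 35 were called and 20 with length and GC trends removed. The trend called 7, with 4 under the index, 4 without exon overlap, and 4 to 11 with 1 library left out. Scarna2 turned from 0.64 to -0.045 on the log2 scale between 30 and 3 µg/kg with length and GC trends removed. The cause was not tested.

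Of 3095 values of named members under alternatives, 2894 (93.5%) were counted as unchanged. For a called value this meant the same direction and a kept call. For a value without a call it meant no call gained and a shift of at most 1 SE, whatever the sign. Of the rest, 126 lost the call, 17 gained it, 57 that had no call to lose moved by more than 1 SE, and 1 called value reversed. Changes of sign among values without a call were not counted. The restriction to members without exon overlap and that to members with under 50% shared 25-base words were chosen after seeing the data. No paired analysis was possible because the labels carry no replicate numbers and the numbers used here follow accession order. Depth limits members near 3 counts per library, such as Gm25394 and Gm25117 at 3 µg/kg, and 35 members could not be tested.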
